A study of Mus musculus with 16 samples.

Results

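The integrated stress response effectors followed here are 7 mouse genes that act downstream of the transcription factors ATF4 and CHOP: Trib3, Ppp1r15a, Chac1, Sesn2, Nupr1, Ddit4 and Stc2. They were chosen by name, with the transcription factors of the response left out and with earlier results of these data known. Each was read from the probe set that the platform's annotation gives to that symbol alone, which found 7 probe sets for 7 genes among 35556 probe sets and 19938 genes tested. The probe sets were 10488608 for Trib3 (chromosome 2), 10563338 for Ppp1r15a (chromosome 7), 10474972 for Chac1 (chromosome 2), 10516932 for Sesn2 (chromosome 4), 10567995 for Nupr1 (chromosome 7), 10369290 for Ddit4 (chromosome 10) and 10384961 for Stc2 (chromosome 11).

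The study asked which genes depend on ATF5, a basic leucine zipper transcription factor related to ATF4, when the proteasome is inhibited. Mouse embryonic fibroblasts (MEFs), connective tissue cells cultured in DMEM, came as a control line and a knockdown line. The control, labelled wild type, carried a scramble shRNA, so both lines carried a short hairpin RNA. The knockdown line (ATF5-KD) stably expressed an shRNA against ATF5. Plates of each line received DMSO as vehicle or 1 µM of the proteasome inhibitor MG132 for 8 h, and total RNA of each of the 16 plates was hybridised to 1 Affymetrix whole-transcript array. This gave 4 groups of 4 arrays. The labels do not say whether a line was 1 clone or whether its plates were independent cultures. The p-values therefore measure the spread between these plates, which may be technical.

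In the integrated stress response, kinases that sense endoplasmic reticulum stress, amino acid shortage, double-stranded RNA or haem shortage phosphorylate the translation factor eIF2. Bulk protein synthesis then slows while the mRNA of ATF4 is translated better, and ATF4 raises CHOP (gene Ddit3) and, together with it, a set of effector genes. The effectors feed back on the response or act on its consequences: Ppp1r15a (GADD34) recruits a phosphatase that restores eIF2, Trib3 is a pseudokinase that binds AKT and ATF4, Sesn2 and Ddit4 restrain the growth kinase complex mTORC1, Chac1 breaks down glutathione, Nupr1 is a small chromatin-associated stress protein, and Stc2 is a secreted glycoprotein. Proteasome inhibitors are known to trigger this response in fibroblasts.

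Several of these genes are known for C/EBP-ATF response elements, composite sites to which ATF4 binds with a C/EBP partner, so the 250 bases before each start were searched in the RefSeq promoter sequences of GRCm38.p6. Sequences of 7 of the 7 genes were matched. The element was searched as TGATGNAA on both strands and was found in the windows of Chac1 and Nupr1, against 3.45% of 32851 promoters. The cyclic AMP response element TGACGTCA was found in the window of Ppp1r15a, 12 to 5 bases before its start, against 1.55% of promoters. A relaxed form, TGNNGCAA, was written after these sequences had been read and overlaps the first element, so its matches are a description. It was found in Trib3, Chac1, Sesn2 and Nupr1, against 9.59% of promoters. The CCAAT box, searched as CCAAT, was found in Chac1, Sesn2, Ddit4 and Stc2, against 33.8%. The stretches around the matches to the first 3 motifs are shown because 5 of the 7 genes can be compared in them. They are written 5′ to 3′ on the gene's strand, with the matched letters in capitals. The Trib3 stretch is chr2:152344066-152344113 (minus strand), that of Ppp1r15a chr7:45526269-45526300 (minus), that of Chac1 chr2:119350992-119351076 (plus), that of Sesn2 chr4:132510647-132510694 (minus) and that of Nupr1 chr7:126625553-126625600 (minus).
Trib3: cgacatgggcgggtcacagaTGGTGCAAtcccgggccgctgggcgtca
Ppp1r15a: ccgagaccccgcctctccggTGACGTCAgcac
Chac1: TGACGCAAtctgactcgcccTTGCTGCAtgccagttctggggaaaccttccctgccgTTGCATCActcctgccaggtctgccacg
Sesn2: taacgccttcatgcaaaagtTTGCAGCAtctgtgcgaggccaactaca
Nupr1: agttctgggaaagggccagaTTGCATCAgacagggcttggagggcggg
In Chac1 and Nupr1 the same letters, TTGCATCA, lie 193 to 186 and 110 to 103 bases before the start. Chac1 has further matches to the relaxed form 250 to 243 and 230 to 223 bases before its start. The windows of Ddit4 and Stc2 hold none of these 3 letter patterns, which says only that the letters are not in these 250 bases. A match describes the sequence and is not evidence of binding.

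The arrays were close in scale, with medians from 7.71 to 7.82 on the log2 scale, and correlated within groups at r = 0.9928 to 0.9982 across probe sets. The number of arrays limits the precision. Atf5, the target of the hairpin, read 8.46 to 8.68 on control and 8.28 to 8.41 on knockdown arrays with vehicle, without overlap (-0.22 ± 0.05 (SE), limma adjusted p = 0.00321). Without the 4 arrays at one end of a gradient inside the groups (control vehicle 1 and 4, knockdown vehicle 1 and control MG132 4) that difference was -0.13 with an adjusted p of 0.0511. With MG132 it was -0.31 ± 0.05 (limma adjusted p = 0.000148). The labelled cell type was set against 10 fibroblast markers, whose control vehicle means were 14.21 for Vim, 13.15 for S100a4, 12.40 for Col1a1, 12.18 for Col1a2, 10.68 for Pdgfrb and 8.80 for Col3a1. Thy1 (8.17), Pdgfra (7.68), Dcn (7.56) and Lum (4.72) were below 8.18, the median of all genes. The smooth muscle markers Acta2 (13.28) and Tagln (12.31), which cultured fibroblasts can also express, read high as well. The remaining smooth muscle markers, Myh11 (7.56) and Cnn1 (7.60), were below the median of all genes. The mean of the 10 fibroblast markers was 9.94 to 9.97 on control and 10.08 to 10.14 on knockdown arrays with vehicle, and 9.69 to 9.71 and 9.87 to 9.96 with MG132. The mean of 4 smooth muscle markers was 10.15 to 10.25 on control and 9.55 to 9.66 on knockdown arrays with vehicle. Between the lines with vehicle 4 fibroblast markers were called higher and 2 lower, and 2 of the 4 smooth muscle markers were lower, led by Tagln at -2.07 ± 0.06. Over all genes 21.5% were called higher and 17.9% lower between the lines with vehicle. In that comparison 1 of 5 macrophage markers was higher, 1 of 5 endothelial markers lower, 0 of 6 epithelial markers called, 1 of 4 adipocyte markers higher, and of 4 neuronal markers 1 higher and 1 lower. Under some alternatives the smooth muscle count was 1, and the counts of the 5 lists after it lay between 0 and 3. The part of these shifts in the effector genes' differences was not tested, and in total RNA of a culture fewer cells with a transcript cannot be told apart from less transcript per cell.

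MG132 raised all 7 effectors in both lines, from 1.35-fold for Stc2 to 3.42-fold for Trib3 in control cells and from 1.33-fold for Stc2 to 4.18-fold for Ppp1r15a in knockdown cells. Among all genes tested 16.8% were called higher and 19.0% lower in control cells, and 16.4% higher and 24.3% lower in knockdown cells, at a limma adjusted p under 0.05. The knockdown shares depended on the setting: of the 19938 genes 3276 were called higher and 4848 lower there, but 1833 and 5795 after centring on medians, 5425 and 5264 with array weights, and 5498 and 5085 without the 4 gradient arrays. The 7 effectors were called higher in each of these. The median change of the 7 genes was 1.18 in control and 0.95 in knockdown cells on the log2 scale, beside 0.03 and 0.03 over all genes. No array with MG132 overlapped an array with vehicle of the same line for any of the 7 genes, which also held for 32.9% and 38.5% of all genes. A change past 2-fold upwards was seen in 61 genes in control cells, with 5 effectors among them, and in 49 genes in knockdown cells, with 3 effectors among them.

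**Figure D1:**
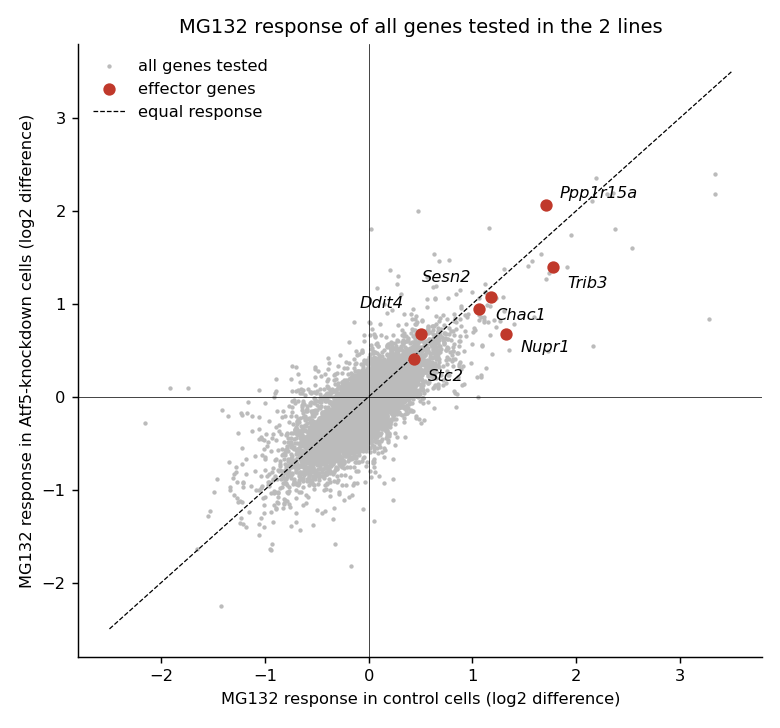
Log2 change with MG132 in control cells (horizontal) and in Atf5-knockdown cells (vertical) for the 19938 genes tested (grey) and the 7 effector genes (red), with a dashed line of equal response. The effector genes lie at the upper right, with Ppp1r15a above the line and Trib3 and Nupr1 below it.

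Trib3, the pseudokinase, read 9.11, 9.21, 9.18 and 9.18 (log2 intensity) on the control arrays with vehicle and 10.92, 10.95, 10.93 and 10.98 with MG132. On knockdown arrays it read 9.90, 9.75, 9.82 and 9.81 with vehicle and 11.18, 11.27, 11.22 and 11.22 with MG132. The 4 groups were separate, in the order control vehicle, knockdown vehicle, control MG132, knockdown MG132. The rise with MG132 was 3.42-fold in control cells (log2 1.78 ± 0.04 (SE), limma adjusted p = 1.29e-15), rank 13 from the highest of all genes. In knockdown cells it was 2.64-fold (1.40 ± 0.04, limma adjusted p = 5.49e-14), rank 20. Knockdown cells had the higher level, by 1.57-fold with vehicle (0.65 ± 0.04, limma adjusted p = 1.54e-10) and by 1.21-fold with MG132 (0.28 ± 0.04, limma adjusted p = 7.43e-06).

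Ppp1r15a, the phosphatase subunit that closes the feedback loop on eIF2, read 9.47, 9.44, 9.45 and 9.54 on control and 9.93, 9.92, 10.04 and 10.04 on knockdown arrays with vehicle. With MG132 the control arrays read 11.15, 11.15, 11.19 and 11.24 and the knockdown arrays 12.06, 12.04, 12.11 and 11.97. The groups were again separate and in the same order, but here the gap between the lines was wider with MG132 than with vehicle. The rise was 3.27-fold in control cells (1.71 ± 0.04, limma adjusted p = 1.31e-14, rank 17). In knockdown cells it was 4.18-fold (2.06 ± 0.04, limma adjusted p = 1.28e-15), rank 7 of all genes and the highest rank of any effector in either line. The knockdown line was 1.42-fold higher with vehicle (0.51 ± 0.04, limma adjusted p = 1.97e-08) and 1.82-fold higher with MG132 (0.86 ± 0.04, limma adjusted p = 2.41e-11).

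Chac1, the enzyme that degrades glutathione, read 10.41, 10.46, 10.40 and 10.47 on control and 11.24, 11.26, 11.23 and 11.23 on knockdown arrays with vehicle. With MG132 the values were 11.46, 11.48, 11.49 and 11.58 in control and 12.25, 12.16, 12.23 and 12.11 in knockdown cells. Knockdown cells with vehicle thus stood 0.26 below control cells with MG132, with no overlap of the arrays. MG132 raised it 2.10-fold in control (1.07 ± 0.04, limma adjusted p = 1.22e-12, rank 53) and 1.93-fold in knockdown cells (0.95 ± 0.04, limma adjusted p = 7.39e-12, rank 55). The knockdown line was 1.75-fold higher with vehicle (0.81 ± 0.04, limma adjusted p = 1.21e-11) and 1.61-fold higher with MG132 (0.69 ± 0.04, limma adjusted p = 1.34e-10).

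Sesn2, a leucine sensor that restrains mTORC1, read 9.68, 9.55, 9.63 and 9.68 on control and 10.30, 10.31, 10.42 and 10.44 on knockdown arrays with vehicle. With MG132 it read 10.78, 10.89, 10.80 and 10.78 in control and 11.45, 11.40, 11.51 and 11.42 in knockdown cells. Its 4 groups did not overlap and kept the order seen for Trib3. The rise was 2.26-fold in control (1.18 ± 0.04, limma adjusted p = 2.85e-12, rank 35) and 2.11-fold in knockdown cells (1.08 ± 0.04, limma adjusted p = 1.01e-11, rank 40). The line difference was 1.66-fold with vehicle (0.73 ± 0.04, limma adjusted p = 3.66e-10) and 1.55-fold with MG132 (0.63 ± 0.04, limma adjusted p = 3.18e-09).

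Ddit4 (REDD1), which restrains mTORC1 through the TSC complex, read 9.60, 9.61, 9.55 and 9.62 on control and 9.70, 9.82, 9.82 and 9.90 on knockdown arrays with vehicle. With MG132 it read 10.10, 10.15, 10.09 and 10.07 in control and 10.40, 10.52, 10.59 and 10.45 in knockdown cells. The groups kept the same order at smaller distances. The rise was 1.42-fold in control (0.51 ± 0.05, limma adjusted p = 1.1e-07, rank 361) and 1.60-fold in knockdown cells (0.68 ± 0.05, limma adjusted p = 3.28e-09, rank 142). The knockdown line was 1.16-fold higher with vehicle (0.22 ± 0.05, limma adjusted p = 0.000901) and 1.31-fold higher with MG132 (0.39 ± 0.05, limma adjusted p = 2.18e-06).

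Nupr1, the chromatin-associated stress protein, read 10.91, 10.98, 10.97 and 10.91 on control and 12.19, 12.22, 12.24 and 12.23 on knockdown arrays with vehicle. With MG132 it read 12.32, 12.22, 12.21 and 12.32 in control and 12.93, 12.87, 12.88 and 12.89 in knockdown cells. For this gene the knockdown cells with vehicle overlapped the control cells with MG132, with means of 12.22 ± 0.02 (SD, n = 4) and 12.27 ± 0.06 (SD, n = 4). It was the only one of the 7 genes with such an overlap. The untreated line difference was 2.42-fold (1.28 ± 0.03, limma adjusted p = 9.83e-15), the widest of the 7, and 1.54-fold with MG132 (0.63 ± 0.03, limma adjusted p = 1.61e-10). The rise with MG132 was 2.51-fold in control cells (1.33 ± 0.03, limma adjusted p = 3.05e-14, rank 24) and 1.59-fold in knockdown cells (0.67 ± 0.03, limma adjusted p = 1.73e-10, rank 151).

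Stc2, the secreted glycoprotein, read 8.10, 8.11, 7.90 and 8.10 on control and 8.02, 8.05, 7.96 and 7.89 on knockdown arrays with vehicle. With MG132 it read 8.52, 8.52, 8.44 and 8.47 in control and 8.42, 8.41, 8.35 and 8.37 in knockdown cells. Its groups separated by treatment, while the lines overlapped with vehicle and did not overlap with MG132. The rise was 1.35-fold in control (0.44 ± 0.05, limma adjusted p = 1.19e-06, rank 540) and 1.33-fold in knockdown cells (0.41 ± 0.05, limma adjusted p = 2.22e-06, rank 499). The knockdown minus control difference was -0.07 ± 0.05 with vehicle (limma adjusted p = 0.277) and -0.10 ± 0.05 with MG132 (limma adjusted p = 0.119). Its 95% intervals were -0.17 to 0.03 and -0.20 to 0.00. Without control vehicle array 3, which read 7.90, the differences were -0.12 (limma adjusted p = 0.025) and -0.10 (limma adjusted p = 0.0484).

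**Figure D2:**
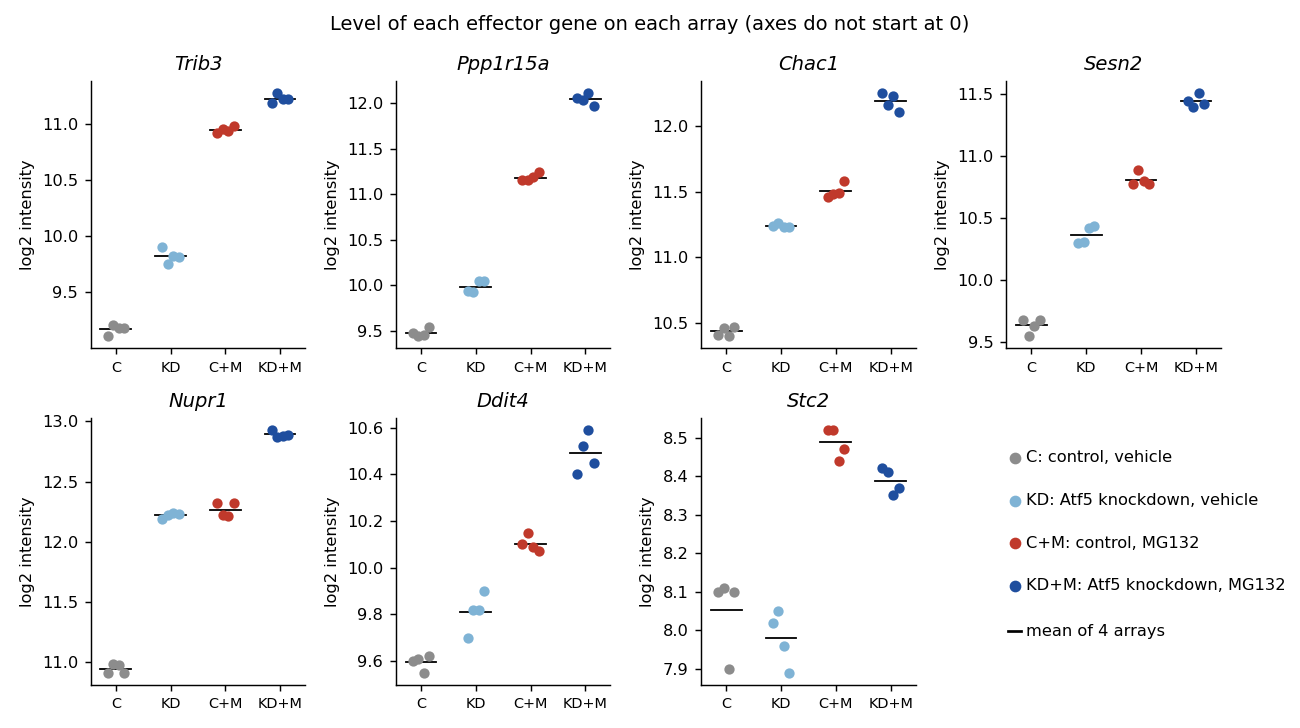
Log2 intensity of each of the 7 effector genes on each of the 16 arrays, by group (C control, KD knockdown, M with MG132), with a line at the mean of 4 arrays; the axes do not start at 0. In 6 genes the knockdown arrays lie above the control arrays with either treatment, in Nupr1 the 2 middle groups overlap, and in Stc2 the knockdown arrays with MG132 lie below the control arrays.

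Between the lines 6 effectors were higher in knockdown cells with vehicle and 6 with MG132, the same 6 genes, and 0 were lower. Over all genes 21.5% were called higher and 17.9% lower with vehicle, and 17.7% higher and 20.3% lower with MG132, by limma at an adjusted p under 0.05. The arrays of the lines did not overlap for 6 effectors with vehicle and 7 with MG132, beside 38.7% and 34.7% of all genes. The median line difference of the 7 genes was 0.65 with vehicle and 0.63 with MG132, beside -0.01 and 0.00 over all genes. Knockdown cells with vehicle stood below control cells with MG132 in 6 genes without overlap of the arrays. The difference was -1.13 for Trib3, -1.20 for Ppp1r15a, -0.45 for Sesn2, -0.29 for Ddit4, -0.26 for Chac1 and -0.51 for Stc2. For Nupr1 it was -0.05, with overlap.

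**Figure D3:**
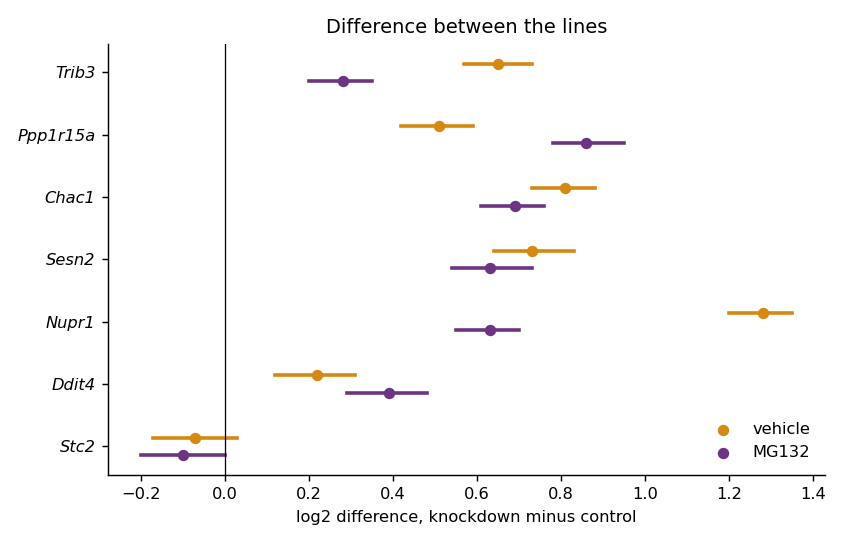
Knockdown minus control difference (log2) of the 7 effector genes with vehicle (orange) and with MG132 (purple), with 95% intervals. From vehicle to MG132 the difference went from 1.28 to 0.63 for Nupr1, from 0.65 to 0.28 for Trib3 and from 0.51 to 0.86 for Ppp1r15a, and the vehicle interval of Stc2 crosses 0.

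Whether the MG132 response differed between the lines was tested as the difference of the 2 responses, knockdown minus control. It was called for 3 of the 7 effectors, 1 higher and 2 lower, where 4.45% of all genes were higher and 10.1% lower by limma at an adjusted p under 0.05. The rise of Ppp1r15a was larger in knockdown cells by 0.36 ± 0.06 (SE) on the log2 scale (95% interval 0.23 to 0.48, limma adjusted p = 0.000639). Trib3 rose less there, with a difference of -0.37 ± 0.05 (interval -0.48 to -0.26, limma adjusted p = 0.000149). Nupr1 rose less too, with a difference of -0.65 ± 0.05 (interval -0.76 to -0.55, limma adjusted p = 3.14e-07), and 0.401% of all genes had a lower value. These 3 genes had each started higher in the knockdown line, so a smaller rise (Trib3, Nupr1) and a larger one (Ppp1r15a) both ended at a higher level with MG132.

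For the other 4 effectors the difference of the responses was not called. It was -0.12 ± 0.05 for Chac1 (interval -0.23 to -0.01, limma adjusted p = 0.153), -0.10 ± 0.06 for Sesn2 (interval -0.23 to 0.03, limma adjusted p = 0.344), 0.17 ± 0.06 for Ddit4 (interval 0.04 to 0.31, limma adjusted p = 0.0889) and -0.03 ± 0.07 for Stc2 (interval -0.17 to 0.12, limma adjusted p = 0.867). The intervals are not adjusted for the number of genes, and those of Chac1 and Ddit4 leave out 0. A miss of the threshold does not show that the lines responded alike. A second quantile normalization gave Ddit4 a difference of 0.22 with an adjusted p of 0.0135 in limma.

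**Figure D4:**
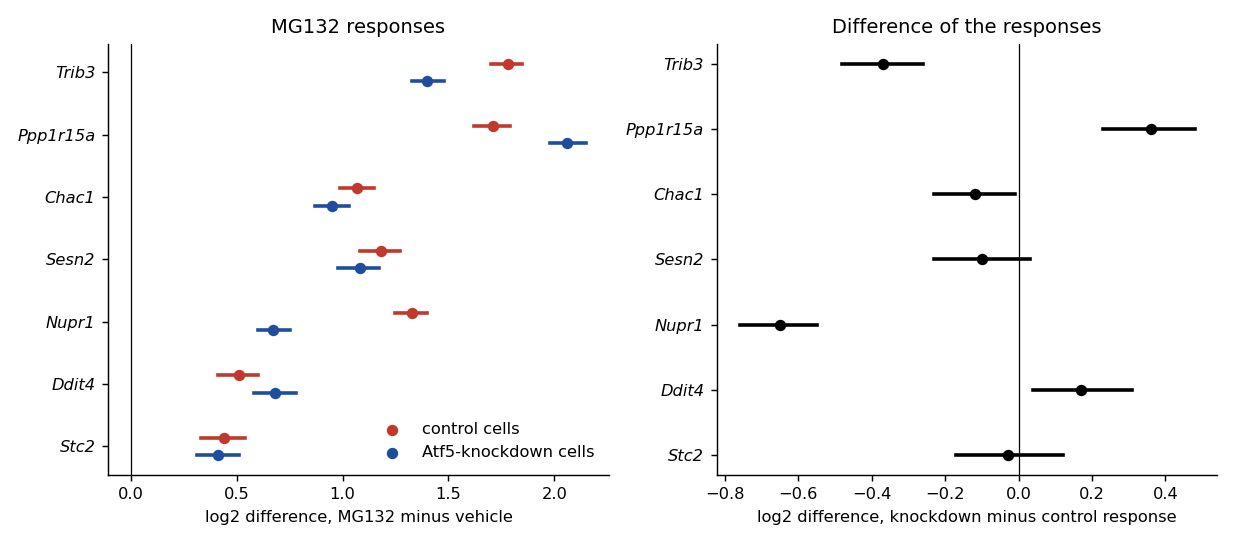
Left, log2 change with MG132 in control cells (red) and Atf5-knockdown cells (blue); right, the knockdown minus control difference of these changes; lines are 95% intervals. The difference lies above 0 for Ppp1r15a (0.36) and below 0 for Trib3 (-0.37) and Nupr1 (-0.65), the 3 genes called.

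Of the 9 paralogs of the effectors 1 was higher and 4 were lower with MG132 in each line, where 16.8% and 16.4% of all genes were higher and 19.0% and 24.3% lower in control and knockdown cells, and the median change was -0.12 in control and -0.13 in knockdown cells. Sesn1, a p53-regulated sestrin, was the one that rose, by 0.35 ± 0.05 in control cells (limma adjusted p = 1.31e-05) and 0.26 ± 0.05 in knockdown cells (limma adjusted p = 0.000207). It was also higher in the knockdown line, as Sesn2 was, by 0.57 ± 0.05 with vehicle (limma adjusted p = 2.44e-08) and 0.49 ± 0.05 with MG132 (limma adjusted p = 2.14e-07). Sesn3 fell in knockdown cells (-0.46 ± 0.08, limma adjusted p = 8.68e-05) and was at -0.12 ± 0.08 in control cells (limma adjusted p = 0.257).

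Trib1, the pseudokinase that guides C/EBP alpha to degradation, went the other way from Trib3. It fell by 0.59 ± 0.04 in control cells (limma adjusted p = 1.41e-09) and changed by -0.13 ± 0.04 in knockdown cells (limma adjusted p = 0.00761), and the difference of these responses was 0.46 ± 0.05 (limma adjusted p = 2.28e-05). With vehicle it was lower in the knockdown line (-0.62 ± 0.04, limma adjusted p = 3.37e-10). Trib2 was lower with MG132 in control cells too (-0.61 ± 0.08, limma adjusted p = 1.42e-05) and was at -0.21 ± 0.08 in knockdown cells (limma adjusted p = 0.0558). It was lower in the knockdown line with vehicle (-0.80 ± 0.08, limma adjusted p = 5e-07).

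Ppp1r15b, the constitutive counterpart of Ppp1r15a, fell by 0.29 ± 0.03 in control cells (limma adjusted p = 2.38e-06) and by 0.24 ± 0.03 in knockdown cells (limma adjusted p = 1.52e-05), while Ppp1r15a rose in both. Chac2, the slower glutathione-degrading enzyme of the family, fell by 0.31 ± 0.07 in control (limma adjusted p = 0.00111) and by 0.34 ± 0.07 in knockdown cells (limma adjusted p = 0.000452). Its line difference with vehicle was 0.00 ± 0.07 (limma adjusted p = 1.0), beside 0.81 for Chac1, and the gap between those values was not tested. Nupr1l, Ddit4l and Stc1 were called in 0 of the 5 comparisons. In 2 of these comparisons, the MG132 responses, their changes lay between -0.05 and 0.17. Group means were 7.50 to 7.59 for Nupr1l, 7.30 to 7.47 for Ddit4l and 6.33 to 6.51 for Stc1. All lay below 8.18, the median of all genes. Without detection calls a gene that was not expressed cannot be told apart from one that did not change.

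**Figure D5:**
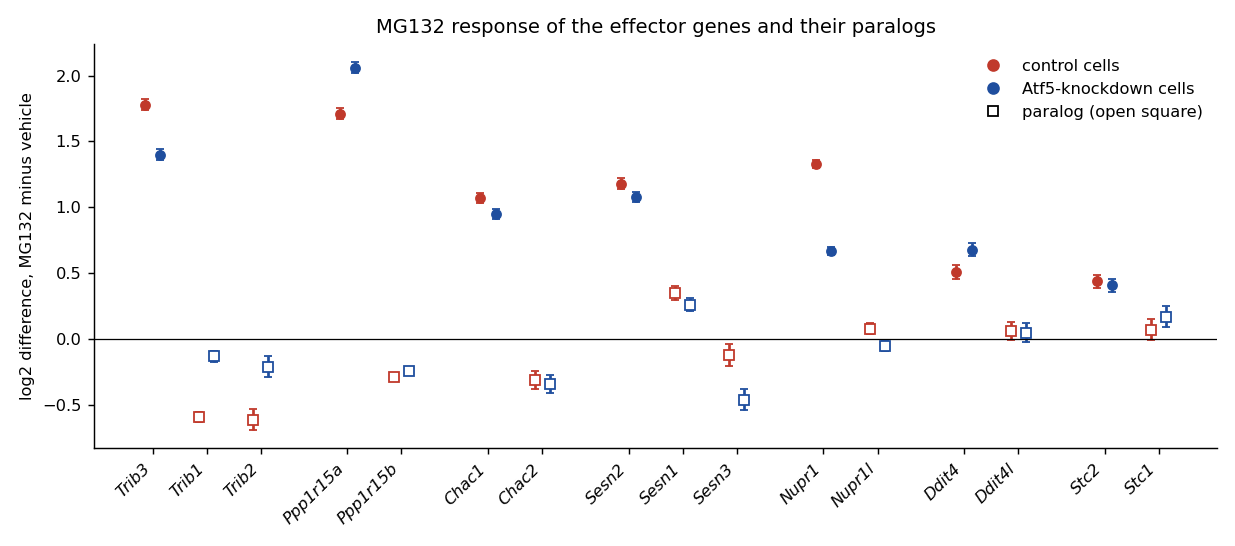
Log2 change with MG132 in control cells (red) and Atf5-knockdown cells (blue) of the 7 effector genes (filled circles) and their 9 paralogs (open squares), with standard errors. Every effector lies above 0, and among the paralogs Sesn1 is the one that rose in both lines while Trib1, Ppp1r15b and Chac2 fell in both.

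Upstream of the effectors, the list of eIF2 kinases and translation control held 16 genes, 15 of them measured (not Eif2s1), of which 3 were higher and 3 lower with MG132 in control cells and 3 and 6 in knockdown cells. Over all genes 16.8% were higher and 19.0% lower in control cells and 16.4% and 24.3% in knockdown cells, so the list's shares in control cells were near those of all genes. Dnajc3 (p58IPK, a co-chaperone that inhibits eIF2 kinases) rose by 0.59 ± 0.03 in control (limma adjusted p = 5.59e-10) and 0.46 ± 0.03 in knockdown cells (limma adjusted p = 1.08e-08). Eif2b4, a subunit of the exchange factor for eIF2, rose by 0.35 ± 0.05 (limma adjusted p = 1.27e-05) and 0.34 ± 0.05 (limma adjusted p = 1.65e-05). The list's median was -0.02 in control and -0.11 in knockdown cells. Phosphorylation of eIF2 is not measured by mRNA levels.

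Of the 7 transcription factors of the response, 6 rose with MG132 in control cells and 4 in knockdown cells, and 0 fell in either. Of all genes 16.8% rose and 19.0% fell in control cells, and 16.4% and 24.3% in knockdown cells. The 7 include Atf5, the target of the hairpin. Atf5 was called in control cells (0.20 ± 0.05, limma adjusted p = 0.00759) but not in knockdown cells (0.11 ± 0.05, limma adjusted p = 0.134). The difference of these Atf5 responses was -0.09 ± 0.08 (limma adjusted p = 0.509). Ddit3, which encodes CHOP, rose by 2.38 ± 0.04 in control (limma adjusted p = 8.01e-17) and by 1.81 ± 0.04 in knockdown cells (limma adjusted p = 4.01e-15). The difference of its responses was -0.57 ± 0.06 (limma adjusted p = 5.35e-06), and its line difference was 0.72 ± 0.04 with vehicle (limma adjusted p = 1.2e-10) and 0.15 ± 0.04 with MG132 (limma adjusted p = 0.00474). As for Trib3 and Nupr1, the level was higher and the rise smaller in knockdown cells. Atf4 rose by 0.32 ± 0.03 (limma adjusted p = 9.58e-08) and 0.36 ± 0.03 (limma adjusted p = 2.6e-08), with a difference of 0.04 ± 0.04 (limma adjusted p = 0.665), and was higher in the knockdown line by 0.23 ± 0.03 with vehicle (limma adjusted p = 3e-06).

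Atf3, a repressor of the same family, rose by 2.36 ± 0.04 in control cells (limma adjusted p = 6.35e-17) and 2.19 ± 0.04 in knockdown cells (limma adjusted p = 1.81e-16). Where 6 effectors were higher in the knockdown line, Atf3 was lower there, at -0.23 ± 0.04 with vehicle (limma adjusted p = 7.78e-05) and -0.40 ± 0.04 with MG132 (limma adjusted p = 1.54e-07). Cebpg, a C/EBP partner of ATF4, was higher in the knockdown line by 0.49 ± 0.04 with vehicle (limma adjusted p = 8.66e-09). Cebpb was higher there by 0.58 ± 0.04 (limma adjusted p = 7.66e-09).

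Of 38 other listed targets of ATF4 and CHOP 35 were measured (not Gdf15, Aars and Pycr1). The list was written with earlier results of these data known. Of the 35, 30 rose and 0 fell with MG132 in control cells, with a median of 0.39. In knockdown cells 31 rose and 1 fell, with a median of 0.34. The shares of all genes were 16.8% higher and 19.0% lower in control cells, and 16.4% and 24.3% in knockdown cells. Between the lines 21 were higher and 5 lower in knockdown cells with vehicle, and 22 and 4 with MG132, with medians of 0.13 and 0.18. For all genes these shares were 21.5% higher and 17.9% lower with vehicle, and 17.7% and 20.3% with MG132. The difference of the responses was called higher for 4 and lower for 8 of the 35, with a median of -0.02. It was called higher for 4.45% and lower for 10.1% of all genes. The largest rise among the named ones was that of Slc7a11, the cystine transporter, by 3.34 ± 0.04 in control (limma adjusted p = 2.53e-18) and 2.40 ± 0.04 in knockdown cells (limma adjusted p = 1.81e-16), with a difference of -0.94 ± 0.06 (limma adjusted p = 3.21e-08). Its mean was higher in knockdown than in control cells with vehicle (9.40 against 8.88) but lower with MG132 (11.79 against 12.22).

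Aldh1l2, a mitochondrial folate enzyme, also combined a higher untreated level with a smaller rise in knockdown cells. It was higher in that line by 1.86 ± 0.04 with vehicle (limma adjusted p = 9.15e-16), and its rise was 1.35 ± 0.04 in control (limma adjusted p = 1.99e-13) and 0.50 ± 0.04 in knockdown cells (limma adjusted p = 3.4e-08), a difference of -0.85 ± 0.06 (limma adjusted p = 1.44e-07). Gpt2, a mitochondrial transaminase, also rose less in knockdown cells, with a difference of -0.51 ± 0.06 (limma adjusted p = 2.68e-05). Vegfa, the angiogenic growth factor, moved as Ppp1r15a did in that its rise was larger in knockdown cells, 0.56 ± 0.03 against 0.18 ± 0.03, a difference of 0.39 ± 0.04 (limma adjusted p = 1.12e-05). Unlike Ppp1r15a, Vegfa started lower in knockdown than in control cells (means 10.42 and 10.59 with vehicle). With MG132 its means were 10.98 in knockdown and 10.77 in control cells. Sqstm1, the autophagy receptor p62, rose by 1.18 ± 0.03 in control (limma adjusted p = 6.59e-14) and 1.04 ± 0.03 in knockdown cells (limma adjusted p = 5.8e-13).

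Among 16 measured genes of partners and pathways that the effectors act on, 7 were higher and 5 lower with MG132 in control cells and 7 and 7 in knockdown cells, with medians of 0.09 and 0.03. Beside these, 16.8% of all genes were higher and 19.0% lower in control cells, and 16.4% and 24.3% in knockdown cells. Both subunits of glutamate-cysteine ligase, the first enzyme in the synthesis of the glutathione that Chac1 breaks down, rose. Gclc rose by 0.73 ± 0.04 in control (limma adjusted p = 7.7e-11) and 0.69 ± 0.04 in knockdown cells (limma adjusted p = 1.73e-10). Gclm rose by 0.66 ± 0.03 (limma adjusted p = 3.44e-11) and 0.67 ± 0.03 (limma adjusted p = 2.92e-11). Gss, also on this list, had means of 10.21 with vehicle and 10.23 with MG132 in control cells. In knockdown cells the means of Gss were 10.83 with vehicle and 10.59 with MG132. Mtor, the kinase that Sesn2 and Ddit4 restrain, was lower with MG132 in control (-0.19 ± 0.04, limma adjusted p = 0.000622) and knockdown cells (-0.40 ± 0.04, limma adjusted p = 1.86e-07), with a difference of -0.21 ± 0.05 (limma adjusted p = 0.0137). Nfe2l2 (NRF2) rose in control cells by 0.38 ± 0.04 (limma adjusted p = 1.95e-07) and was at 0.07 ± 0.04 in knockdown cells (limma adjusted p = 0.12), a difference of -0.31 ± 0.05 (limma adjusted p = 0.000657).

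The genes nearest to each effector were found by the root mean square difference in 3 log2 changes from control vehicle (knockdown vehicle, control MG132, knockdown MG132), over 4 group means. They are a description of likeness in these 16 arrays. Nearest to Trib3 were Ciart at 0.14, Car6 at 0.18 and Srxn1 at 0.327. Nearest to Ppp1r15a were Car6 at 0.215, Gadd45a at 0.307 and Osgin1 at 0.342. Car6 is itself on the list of ATF4 and CHOP targets, which was written with earlier results of these data known. Its mean on control vehicle arrays was 6.41, below the median of all genes (8.18). The changes of Ppp1r15a were 0.51, 1.71 and 2.57, and those of Car6 were 0.55, 1.95 and 2.29.

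Chac1 and Sesn2 shared neighbours: Gem (0.138 from Chac1, 0.193 from Sesn2) and Camk1d (0.166 and 0.138). Klf9 was at 0.178 from Chac1, and Slc6a9, a glycine transporter on the target list, at 0.154 from Sesn2. Nupr1 was nearest to Rab39b at 0.114, Blvrb at 0.134 and Hspa4l at 0.207. Rab39b changed by 1.38, 1.20 and 1.84, beside 1.28, 1.33 and 1.95 for Nupr1. Ddit4 was nearest to Rnf19b at 0.051, Ern1, which encodes the stress sensor IRE1 alpha, at 0.058 and Lonrf1 at 0.064. Stc2, with changes of -0.07, 0.44 and 0.34, was nearest to Slc7a6os at 0.014, Rlim at 0.017 and Mpp5 at 0.021.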

How the data were processed

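The members and gene lists were chosen with earlier results of these data known. The authors deposited log2 intensities per probe set, with 2 decimals. The submitters' processing notes name RMA and Partek without versions or settings, and no genome build of the probes is given there. RMA equalises array distributions, so a common shift of most genes would not be seen. Of 35556 probe sets 21789 carried 1 symbol, and 21698 of these matched the RefSeq gene table of GRCm38.p6 by gene ID; the brightest probe set stood for each of 999 genes with several, which left 19938 genes. No detection calls were used.

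A model with a mean for each of 4 groups was fitted to 16 arrays in R 4.3.3, using lmFit and eBayes of limma 3.58.1. There were 12 residual degrees of freedom and 4.12 from the prior. Two-sided p-values were adjusted (Benjamini-Hochberg) over all genes, with a threshold of 0.05. Intervals are moderated 95% intervals. On simulated data with 200 of 19938 genes changed by 1.25-fold, 79.5% were recovered in the control response and 42% in the difference of the responses. Named genes were the members, their paralogs, Atf5, up to 4 genes of each other list with the smallest p in the control response and up to 4 in the difference of the responses, and the 3 nearest genes to each member, skipping gene models, clones and small RNAs; not every gene the rule allows is described.

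Whether equal replicate numbers mark paired plates is not stated in the labels. For control cells, the deviations of same-numbered vehicle and MG132 plates correlated at r = 0.11 to 0.43. For knockdown cells r ran from -0.12 to 0.32. Between the lines it ran from -0.29 to 0.42 with vehicle and from -0.42 to 0.07 with MG132. These ranges overlap and do not settle the pairing. The reported model used group means without pairing, and a replicate block was fitted only as an alternative. The alternatives tried were centring on medians, quantile normalization of the deposited values once more, a filter at the 25th percentile, averaging the probe sets of a gene, array weights, a replicate block, only the groups compared, the 4 gradient arrays left out and each array left out. Figures were drawn in Python 3.11.15 (matplotlib 3.10.9).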

Additional observations from a re-analysis of the deposited data

Results flagged for a closer look

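The difference of the MG132 responses between the lines passed the test for Nupr1 (-0.65), Trib3 (-0.37) and Ppp1r15a (0.36), on the log2 scale as knockdown minus control. Stc2 read 7.90 on control vehicle array 3 while the other 3 arrays read 8.10 to 8.11. Its gap to the nearest array was 0.952 of the group's range, above Dixon's 95% critical value for 4 samples. Of the 28 groups of 4 arrays examined, chance would single out about 1 in 20.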

How the results depend on the processing

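Under 24 alternatives the number of effectors called was within 1.5 times its reported value in each of 119 counts. Of 833 values of single effectors 829 kept direction and side of the threshold. The difference of the responses of Stc2 was 0.02 (limma adjusted p = 0.859) without control vehicle array 3. Leaving out 1 array at a time it ranged from -0.06 to 0.02, and over its alternatives from -0.07 to 0.02, with adjusted p-values of 0.636 to 0.982. Without that array the line differences of Stc2 were called (-0.12 and -0.10), and a second quantile normalization called the difference of Ddit4 (0.22). With the replicate block 7 effectors remained called in the control response, where 3341 genes were higher and 3726 lower; the block changed no other call of an effector. Centring on medians changed the split over all genes to 2150 higher and 4624 lower in control cells, from 3341 and 3796, and to 1833 and 5795 in knockdown cells, from 3276 and 4848. In knockdown cells array weights gave 5425 and 5264, and leaving out the 4 gradient arrays gave 5498 and 5085. Of 595 counts over the 5 pathway and paralog lists 43 moved by over 1.5 times, 42 of them in the difference of the responses, which is why that count is given for the ATF4 and CHOP targets alone; the other was the eIF2 list between the lines with vehicle, 5 in place of 8 without knockdown vehicle array 3. Of 168 counts over the 7 marker lists between the lines with vehicle, an addition made after the data were seen, 23 moved by over 1.5 times, 9 of them for smooth muscle and 0 for fibroblast. A fit of only the groups compared was not run for the difference of the responses, which uses 4 groups.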
